A study of Mus musculus with 6 samples.

Results

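Fatty acid oxidation genes were examined in abdominal white adipose tissue (WAT) of female hNAG-1 transgenic mice and wild-type (WT) mice. The 33 genes are a list, by name, of the mitochondrial and peroxisomal beta-oxidation machinery, chosen with earlier results of these data known. Shares of the members set beside those of all genes are therefore descriptions and not tests. All 33 were found on the array, on 45 of its 41174 probes, and all 33 were among the 21067 genes tested. The brightest probe over all arrays stood for each gene, and 3 genes stand in the files under older symbols (Hadh as Hadhsc, Eci1 as Dci and Eci2 as Peci). The 3 hNAG-1 arrays and the 3 WT arrays held RNA of C57/BL6 females at 30 wk of age, each array a pool of 2 different mice, so that 6 mice of each genotype were sampled. The hNAG-1 mice carry the human NAG-1 (GDF15) gene, come from 1 transgenic line and express the transgene in most tissues including WAT; the WT mice carry none, and the array holds no check of the human transcript. Intervals and p-values therefore measure the spread between pools. In bulk tissue, fewer cells of a type and less RNA per cell cannot be told apart.

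Beta-oxidation shortens fatty acids by repeated cycles of dehydrogenation, hydration, a second dehydrogenation and thiolysis. Long chains enter mitochondria as carnitine esters, made by carnitine palmitoyltransferase 1, the enzyme that malonyl-CoA inhibits. Peroxisomes carry out the first rounds on very long and branched chains with an oxidase in place of the dehydrogenase. White adipocytes mainly store and release fatty acids, whereas brown adipocytes burn them for heat.

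Values are log2 signals of single-colour Agilent arrays, set relative to the 75th percentile of each array, so that 0 is the level of that percentile and 1 unit is a doubling. The 75th percentile of the processed signal ranged over 628.8 to 858.2 for hNAG-1 and 912.6 to 969.6 for WT. All 33 genes were well above background on all 6 arrays. The adipocyte markers Adipoq, Plin1, Fabp4, Cfd, Cidec and Retn were between 6.33 and 9.54 on every array, as the tissue label states. Summed marker signal of other tissues differed between pools. That of liver and brown fat was highest on WT replicate 2, and that of skeletal muscle on hNAG-1 replicate 2 and WT replicate 1. The log2 of the summed signal of 4 liver markers was 0.49, 5.27 and 1.07 on the hNAG-1 arrays and 2.49, 7.33 and 3.82 on the WT arrays. That of 7 brown adipocyte markers was 6.60, 5.97 and 6.00 on the hNAG-1 arrays and 5.20, 7.30 and 5.74 on the WT arrays. Among these markers Ucp1, Cidea and Cox8b were highest on WT replicate 2, whereas Elovl3, Dio2, Prdm16 and Zic1 were each highest on another array. For 12 skeletal muscle markers it was 6.46, 9.05 and 6.78 on the hNAG-1 arrays and 8.38, 7.09 and 6.06 on the WT arrays. One slide held hNAG-1 replicate 1 together with all WT arrays, and a second slide held the other 2 hNAG-1 arrays.

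The oxidation genes were mostly slightly higher in hNAG-1 WAT, with carnitine palmitoyltransferase 1a in the opposite direction. Of the 33 genes, 28 had a log2 fold change above 0 (84.8%, against 58.9% of all genes) and 5 below 0 (Cpt1a, Cpt1b, Crot, Acaa2 and Decr2). With quantile normalization 25 were above 0, and with normexp background correction 32, Cpt1a being below 0 in each. The median log2 fold change of the members was 0.21, against 0.06 over all genes tested, and the extremes were 0.68 for Acot2 and -0.44 for Cpt1a. With quantile normalization the median was 0.10, against 0.02 over all genes. No member passed an adjusted p of 0.05 in limma, nor did any gene of the array (0%), the smallest adjusted p over all genes being 0.169. At an unadjusted p under 0.05 in limma, 5 members were higher in hNAG-1 mice (15.2%, against 8.44% of all genes). By the same threshold 1 of the 33 was lower, a smaller share than the 4.11% of all genes. The higher ones were Crat, Acadvl, Echs1, Abcd3 and Acot2, and the lower one was Cpt1a. With quantile normalization 2 members were higher, a share below that of all genes (6.06%, against 8.59% in that fit). In 11 members every hNAG-1 array was above every WT array (33.3%, against 13.6% of all genes). In 1 of the 33, Cpt1a, every hNAG-1 array was below every WT array, a smaller share than the 6.61% of all genes.

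Array by array, the median of the 33 genes relative to each gene's WT mean was 0.27, 0.21 and 0.18 in the hNAG-1 pools and -0.16, 0.17 and 0.02 in the WT pools. The lowest hNAG-1 pool and the highest WT pool were thus nearly level. Without WT replicate 1, the lowest pool, the median difference of the members was 0.09 and exceeded that of all genes by 0.01. Without WT replicate 2 it was 0.29, with 32 of 33 genes above 0. In the slide that held both genotypes, where hNAG-1 replicate 1 is set against the 3 WT arrays, the median was 0.27 with 31 of 33 genes above 0, while the median of all genes was -0.03. The unadjusted calls varied too. Without WT replicate 2, 8 members were higher (24.2%, against 6.37% of all genes in that fit). In each of the fits without WT replicate 1 and without hNAG-1 replicate 1, 1 member was higher (3.03%, against 5.72% and 11.3% of all genes).

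**Figure D1:**
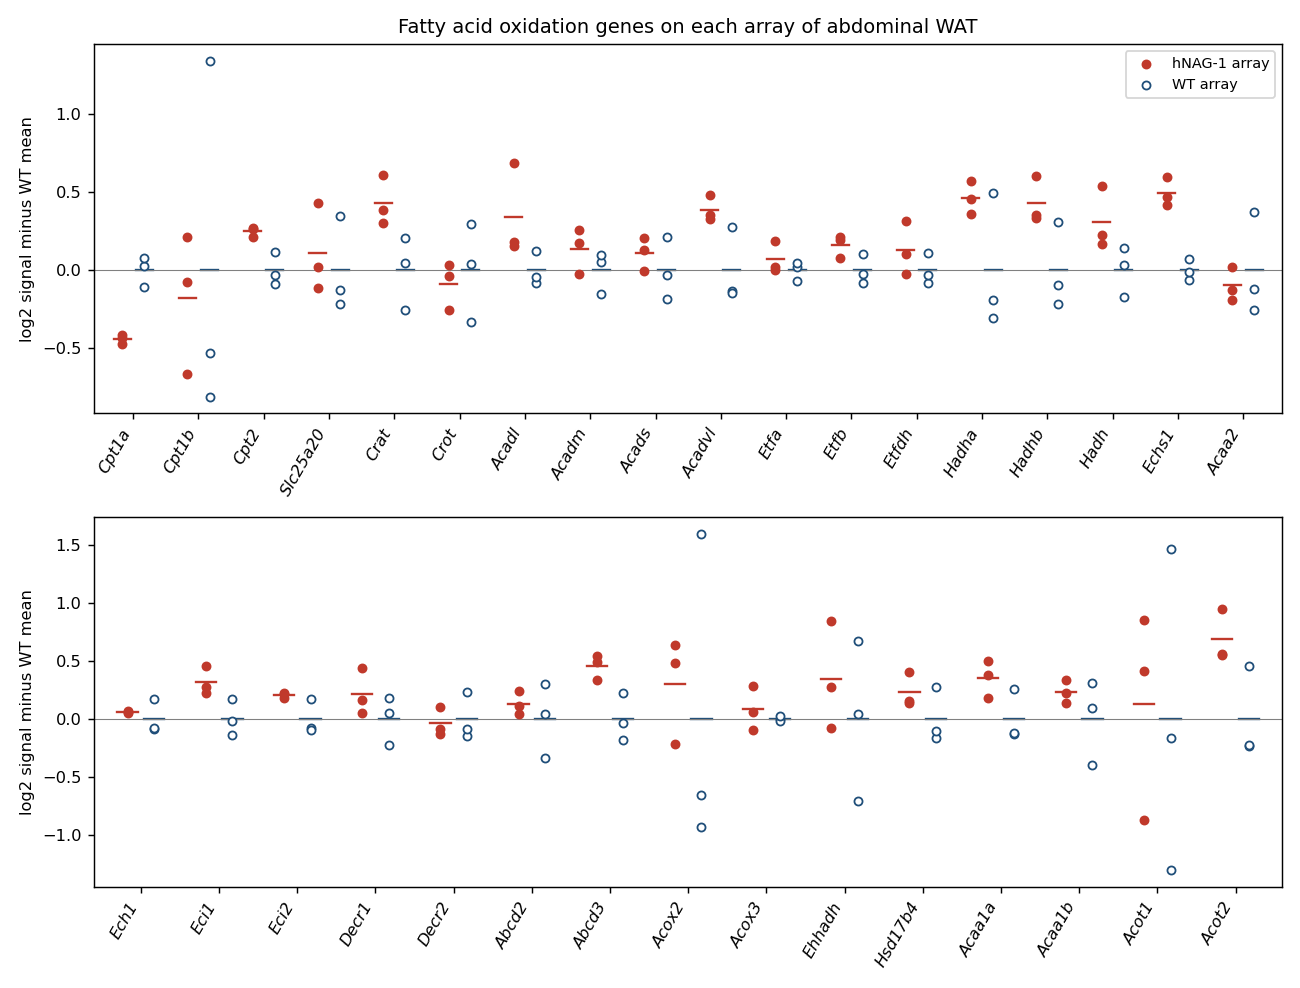
Log2 signal of each of the 33 genes on each array minus that gene's WT mean; filled points are hNAG-1 arrays, open points WT arrays and short lines the group means (n = 3 each). Cpt1a lies below 0 on all 3 hNAG-1 arrays, Echs1 and Abcd3 above all WT arrays, and Cpt1b, Acox2 and Acot1 have 1 WT array far above the other two.

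**Figure D2:**
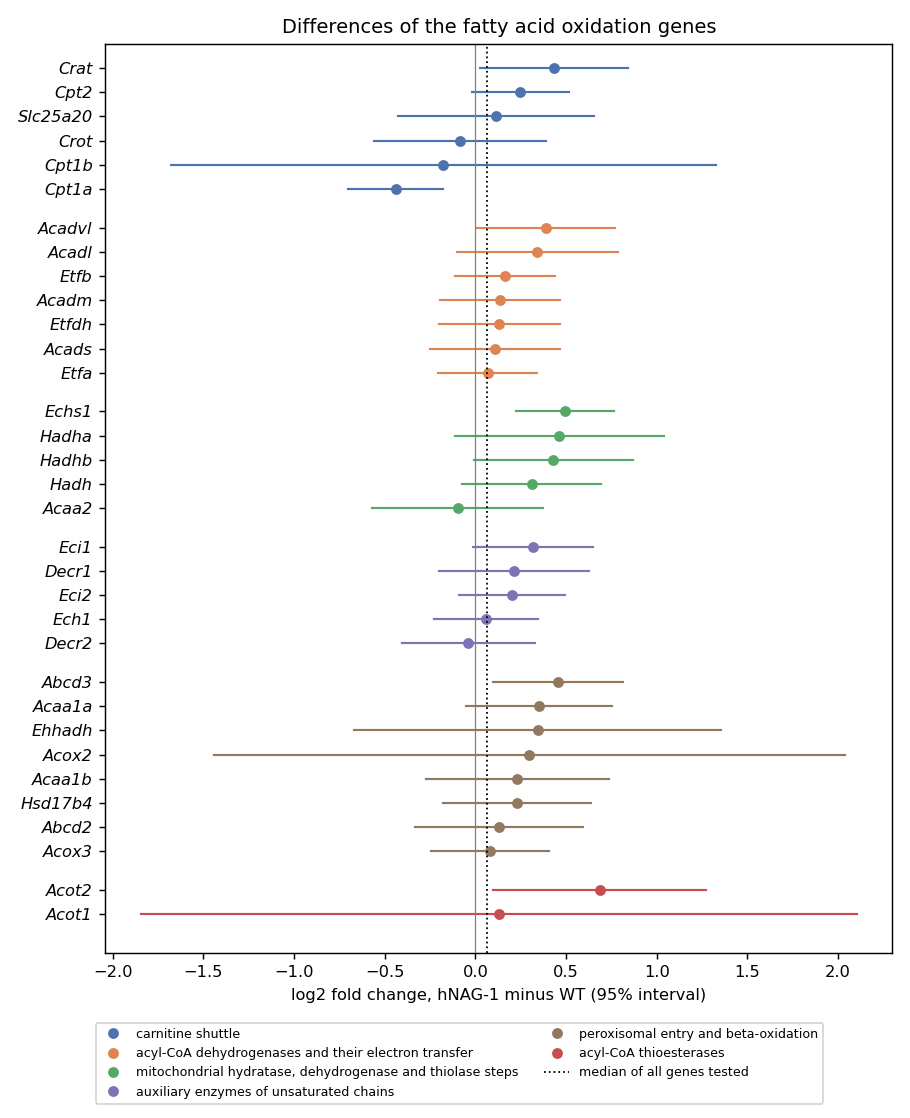
Log2 fold change of each gene (hNAG-1 minus WT) with its 95% interval from limma, grouped by role; the dotted line is the median of all genes tested, 0.06. The intervals of Cpt1a, Crat, Acadvl, Echs1, Abcd3 and Acot2 do not include 0 before adjustment for 21067 genes.

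RefSeq (GRCm38.p6) gave a promoter window, 250 bases before to 50 after the start, for 27 of the 33 genes, in 29 windows. Both strands were searched for short motifs spelled as plain letters. The nuclear receptor hexamer AGGTCA, the core of sites used by PPARs and estrogen-related receptors, was in the windows of Cpt1a, Acadm, Acadvl and Echs1 (13.8% of the windows, against 16.3% of all 32851 windows). CCAAT was in windows of 13 genes (44.8% of the windows, against 37.4% of all), and it does not overlap the hexamer. Neither the estrogen-related receptor element TCAAGGTCA (0.423% of all windows), which contains the hexamer, nor the E-box CACGTG (7.15% of all windows) was in any member's window. A direct repeat of the hexamer spaced by 1 base was in none either, against 0.0396% of all. The sterol element TCACNCCAC was in the window of Ehhadh (3.45% of the windows, against 1.24% of all). The 250 bases before the start are shown for those genes with an unadjusted p under 0.05 whose window holds a hexamer or CCAAT, in capitals. Abcd3, with 2 windows that hold none of the motifs, and Crat are not shown. In Cpt1a, lower in hNAG-1 WAT, the hexamer begins 94 bases and CCAAT 19 bases before the start, the hexamer being on the opposite strand. In Echs1 and Acadvl, both higher, the hexamer begins 83 and 87 bases before the start, and in Acot2 CCAAT begins 244 bases before it. The windows are Cpt1a chr19:3323051-3323300 (plus strand), Echs1 chr7:140116422-140116671 (minus strand), Acadvl chr11:70015429-70015678 (minus strand) and Acot2 chr12:83987611-83987860 (plus strand).
Cpt1a: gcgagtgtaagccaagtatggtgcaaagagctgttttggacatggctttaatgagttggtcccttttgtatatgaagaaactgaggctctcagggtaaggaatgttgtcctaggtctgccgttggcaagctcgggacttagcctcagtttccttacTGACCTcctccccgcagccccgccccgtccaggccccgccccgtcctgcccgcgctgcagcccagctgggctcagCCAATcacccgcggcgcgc
Echs1: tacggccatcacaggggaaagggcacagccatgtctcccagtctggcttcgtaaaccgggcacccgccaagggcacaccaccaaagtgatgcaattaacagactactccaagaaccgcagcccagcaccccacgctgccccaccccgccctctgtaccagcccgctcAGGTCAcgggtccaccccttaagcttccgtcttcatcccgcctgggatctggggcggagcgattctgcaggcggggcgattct
Acadvl: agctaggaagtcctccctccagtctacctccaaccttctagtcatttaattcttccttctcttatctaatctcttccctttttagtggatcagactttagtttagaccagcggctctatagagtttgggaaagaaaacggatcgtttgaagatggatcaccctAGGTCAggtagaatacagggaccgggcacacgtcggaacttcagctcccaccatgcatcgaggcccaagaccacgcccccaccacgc
Acot2: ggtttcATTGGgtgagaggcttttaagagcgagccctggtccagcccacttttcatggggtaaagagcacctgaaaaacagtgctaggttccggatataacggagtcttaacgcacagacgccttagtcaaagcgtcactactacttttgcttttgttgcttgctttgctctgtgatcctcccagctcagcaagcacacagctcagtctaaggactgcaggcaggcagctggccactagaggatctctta

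The carnitine shuttle, which carries acyl groups into mitochondria and acetyl and medium-chain groups out of mitochondria and peroxisomes, was split, with 3 of 6 genes above 0 and 3 below. Cpt1a, the liver-type isoform of carnitine palmitoyltransferase 1 (probe at chr19:3280180-3280239, mm7), had log2 signals of 1.45, 1.40 and 1.47 in hNAG-1 mice and 1.91, 1.95 and 1.77 in WT mice. The groups did not overlap, and the SD over the 3 hNAG-1 pools was 0.0322. Its log2 fold change was -0.44 (standard error 0.106, unadjusted p = 0.00643, adjusted p = 0.246 in limma), that is 1.36-fold higher in WT mice. A second Cpt1a probe gave a log2 value of -0.37 for the same difference (standard error 0.215). The unadjusted p of Cpt1a in limma stayed under 0.05 without each array in turn. Within the shared slide, where 1 hNAG-1 array is set against the 3 WT arrays, the log2 fold change was -0.43. Under normexp the Cpt1a difference was smaller, at -0.26 on the log2 scale (unadjusted p = 0.283 in limma), and without replicate 2 of both genotypes it was -0.38 (unadjusted p = 0.0721 in limma). Cpt1b, the muscle and brown fat isoform, had log2 signals of 0.11, 0.39 and -0.49 in hNAG-1 mice and -0.63, 1.52 and -0.35 in WT mice. WT replicate 2 was the highest of the 6 and the other two WT pools were among the lowest 3, and the log2 fold change of -0.18 had a 95% interval of -1.68 to 1.33.

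Crat, carnitine acetyltransferase, which moves acetyl groups between CoA and carnitine (probe at chr2:30409475-30409534, mm7), had log2 signals of 4.96, 4.73 and 4.65 in hNAG-1 mice and 4.39, 4.56 and 4.09 in WT mice. Its log2 fold change was 0.43 (standard error 0.165, unadjusted p = 0.0411, adjusted p = 0.381 in limma), without overlap. The unadjusted p of Crat stayed under 0.05 in 1 of the 6 fits that leave out an array, that without WT replicate 2, and was 0.0794 in limma without WT replicate 1. Cpt2, which turns acylcarnitines back into acyl-CoA inside the mitochondrion, had log2 signals of 5.36, 5.36 and 5.30 in hNAG-1 mice and 5.01, 5.06 and 5.21 in WT mice. The pools did not overlap and the log2 fold change was 0.25 (standard error 0.109, unadjusted p = 0.0637 in limma), which did not pass the unadjusted threshold. Slc25a20, the carnitine-acylcarnitine translocase of the inner membrane, had a log2 fold change of 0.11 and Crot, the peroxisomal carnitine octanoyltransferase, one of -0.09, both with overlapping pools.

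The neighbourhood of this entry step was described from 5 genes of malonyl-CoA supply, use and removal and from the regulators of oxidation genes. In the textbook scheme malonyl-CoA inhibits the enzyme that Cpt1a encodes, and the regulators act on oxidation genes. A link of either to the Cpt1a transcript was not tested. Acaca and Acacb, the acetyl-CoA carboxylases that make malonyl-CoA, were 2.83-fold and 3.64-fold higher (standard errors of 0.141 and 0.284 on the log2 scale). Of the 5 genes of the list 4 were higher at an unadjusted p under 0.05 in limma (80%, against 8.44% of all genes). They were Acaca, Acacb, Acly and Fasn, the last of which uses malonyl-CoA. Acacb had log2 signals of 6.01, 5.81 and 5.43 in hNAG-1 mice and 4.29, 3.99 and 3.36 in WT mice. Mlycd, malonyl-CoA decarboxylase, which removes malonyl-CoA, differed by 0.24 on the log2 scale (standard error 0.122, unadjusted p = 0.0996 in limma). Of 16 PPAR and PGC-1 regulators 11 were above 0 (68.8%, against 58.9% of all genes). Of the same 16, 2 were higher at an unadjusted p under 0.05 in limma (12.5%, against 8.44% of all genes). Ppargc1a, which encodes the coactivator PGC-1alpha, had log2 signals of -0.34, -0.22 and -0.40 in hNAG-1 mice and -0.90, -0.77 and -1.25 in WT mice, a difference of 0.65 (log2, standard error 0.159, unadjusted p = 0.00700, adjusted p = 0.250 in limma). Esrra, estrogen-related receptor alpha, differed by 0.59 on the log2 scale (standard error 0.191, unadjusted p = 0.0222 in limma). Ppara, the fatty acid receptor that drives these genes in liver, had log2 signals of -0.32, -0.07 and -0.62 in hNAG-1 mice and -0.86, 0.95 and -0.37 in WT mice, with WT replicate 2 highest and a log2 fold change of -0.24 (95% interval -1.42 to 0.94).

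**Figure D3:**
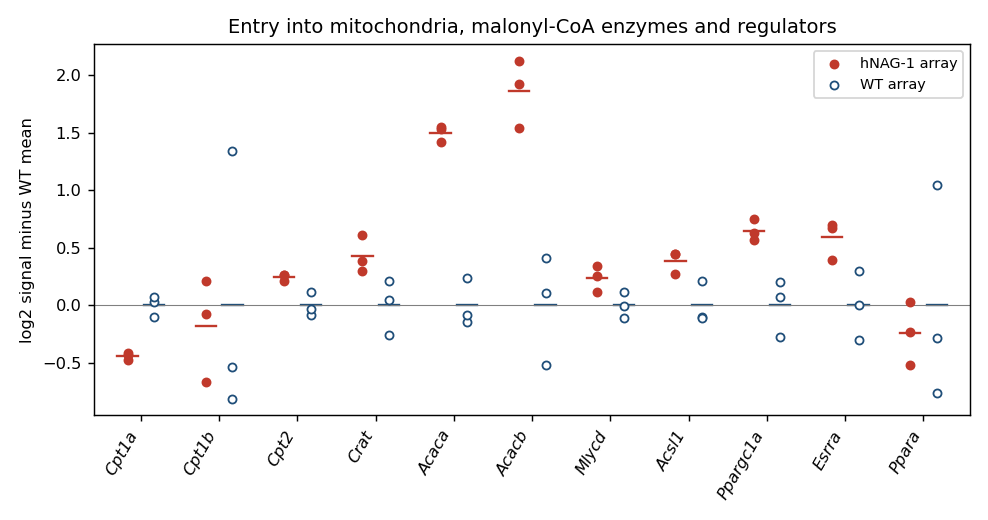
Log2 signal minus the WT mean for genes of the mitochondrial entry step, malonyl-CoA enzymes, Acsl1 and regulators on each array; filled points are hNAG-1, open points WT and lines the means (n = 3 each). Acaca, Acacb, Ppargc1a and Esrra lie above all WT arrays on the 3 hNAG-1 arrays, Cpt1a lies below them, and in Cpt1b and Ppara 1 WT array lies above all others.

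The acyl-CoA dehydrogenases, which start each mitochondrial cycle, and the electron transfer proteins that take their electrons to the respiratory chain were all above 0 (7 of 7 genes, median 0.13), although 2 of them were below 0 with quantile normalization. Acadvl, the very-long-chain dehydrogenase (probe at chr11:70091822-70091881, mm7), had log2 signals of 5.97, 6.13 and 6.00 in hNAG-1 mice and 5.51, 5.92 and 5.50 in WT mice. The closest pools were hNAG-1 replicate 1 and WT replicate 2, and they did not overlap. Its log2 fold change was 0.39 (standard error 0.155, unadjusted p = 0.0469, adjusted p = 0.393 in limma), and without WT replicate 1 its p was 0.136 in limma. Leaving out WT replicate 2 kept its unadjusted p under 0.05, and leaving out any other single array did not. Acadl, the long-chain dehydrogenase, had log2 signals of 3.73, 3.20 and 3.22 in hNAG-1 mice and 2.96, 3.17 and 3.00 in WT mice. Its pools did not overlap, and hNAG-1 replicate 1 alone stood clear of the rest, and the log2 fold change of 0.34 had a standard error of 0.180 (unadjusted p = 0.107 in limma). Acadm, the medium-chain enzyme, had log2 signals of 6.17, 5.97 and 6.25 in hNAG-1 mice and 5.85, 6.05 and 6.10 in WT mice, a log2 fold change of 0.13 with an interval of -0.20 to 0.46. Acads, for short chains, had a log2 fold change of 0.11. Those of Etfa and Etfb, the subunits of electron transfer flavoprotein, were 0.07 and 0.16, and that of Etfdh, its dehydrogenase, was 0.13, all with overlapping pools.

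The later steps of the mitochondrial cycle had a median of 0.43, with 4 of 5 genes above 0. Echs1, the short-chain enoyl-CoA hydratase (probe at chr7:136519660-136519719, mm7), had log2 signals of 5.66, 5.49 and 5.54 in hNAG-1 mice and 5.01, 5.06 and 5.14 in WT mice. Every hNAG-1 pool was above every WT pool, and the pools of each genotype lay close together (SD 0.0910 in hNAG-1 mice and 0.0662 in WT mice, n = 3 each). Its log2 fold change was 0.49, or 1.41-fold (standard error 0.109, unadjusted p = 0.00429, adjusted p = 0.230 in limma), and the unadjusted p stayed under 0.05 without each array in turn. Hadhb, the beta subunit of the trifunctional protein, which holds its thiolase, had log2 signals of 5.64, 5.40 and 5.37 in hNAG-1 mice and 4.83, 5.35 and 4.95 in WT mice, a difference of 0.43 (log2, standard error 0.178, unadjusted p = 0.0530 in limma). Hadha, the alpha subunit with hydratase and dehydrogenase, had log2 signals of 1.65, 1.54 and 1.44 in hNAG-1 mice and 0.89, 1.58 and 0.77 in WT mice. Here WT replicate 2 overlapped the hNAG-1 pools, and the log2 fold change was 0.46 (standard error 0.234). A dimmer Hadha probe above background on all arrays had the opposite sign, -0.20 (standard error 0.158), so the direction of Hadha depended on the probe. In both subunits WT replicate 2 was the highest WT pool, and without it the log2 fold changes were 0.71 for Hadha and 0.59 for Hadhb. Hadh, the short-chain hydroxyacyl-CoA dehydrogenase, had log2 signals of 5.44, 5.07 and 5.13 in hNAG-1 mice and 4.73, 5.05 and 4.94 in WT mice, without overlap but with a difference of 0.31 (log2, standard error 0.155). Acaa2, the mitochondrial thiolase, had a log2 fold change of -0.10 with overlapping pools.

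Hadha and Hadhb lie head to head on chromosome 5. Their RefSeq start sites are 273 bases apart on opposite strands, and the 250 bases before each share 228 bases, shown here once because both subunits of 1 enzyme start from it (chr5:30155003-30155230, GRCm38.p6, plus strand, the Hadhb direction; 57% G or C). None of the motifs named above is spelled in it.
Hadha and Hadhb: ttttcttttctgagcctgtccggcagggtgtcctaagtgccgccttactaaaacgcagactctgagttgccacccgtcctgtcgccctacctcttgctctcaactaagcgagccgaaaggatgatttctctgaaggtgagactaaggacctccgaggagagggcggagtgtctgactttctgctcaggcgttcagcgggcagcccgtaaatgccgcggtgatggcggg

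The auxiliary enzymes, which rearrange double bonds of unsaturated chains, had 4 of 5 genes above 0, or 3 of 5 with quantile normalization, and a median of 0.20. Eci1, the mitochondrial enoyl-CoA isomerase, had log2 signals of 5.08, 4.89 and 4.84 in hNAG-1 mice and 4.59, 4.78 and 4.47 in WT mice, without overlap and with a difference of 0.32 (log2, standard error 0.135, unadjusted p = 0.0571 in limma). Eci2, a peroxisomal and mitochondrial isomerase, had log2 signals of 5.32, 5.31 and 5.28 in hNAG-1 mice and 5.02, 5.01 and 5.27 in WT mice, a log2 fold change of 0.20 in which WT replicate 3 nearly reached the hNAG-1 pools. Decr1, the mitochondrial dienoyl-CoA reductase, had a log2 fold change of 0.21, Decr2, its peroxisomal counterpart, one of -0.04, and Ech1, a dienoyl-CoA isomerase, one of 0.06. The pools of these 3 genes overlapped.

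All 8 genes of peroxisomal entry and oxidation were above 0, with a median of 0.26. In 1 of them every hNAG-1 pool was above every WT pool (12.5%, against 13.6% of all genes). Abcd3, a transporter of fatty acyl-CoA into peroxisomes (probe at chr3:121527762-121527821, mm7), had log2 signals of 4.50, 4.45 and 4.29 in hNAG-1 mice and 3.78, 3.92 and 4.18 in WT mice. Its log2 fold change was 0.46 (standard error 0.145, unadjusted p = 0.0208, adjusted p = 0.320 in limma), while its 2 dimmer probes gave 0.25 and 0.30 on that scale, with standard errors of 0.234 and 0.213. The unadjusted p of Abcd3 stayed under 0.05 in 2 of the 6 fits that leave out an array and was 0.0672 in limma without WT replicate 1. Abcd2, a related transporter, had a log2 fold change of 0.13, and its dimmer probe one of the opposite sign, -0.04. The thiolases Acaa1a and Acaa1b, close paralogs whose probes may share signal, had log2 fold changes of 0.35 (standard error 0.162) and 0.23 (standard error 0.204). Hsd17b4, the bifunctional enzyme of branched and very long chains, had a log2 fold change of 0.23, and Acox3, an oxidase of branched chains, one of 0.08.

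Ehhadh, the bifunctional enzyme of straight chains and a PPARalpha target in liver, had log2 signals of 1.95, 1.39 and 1.03 in hNAG-1 mice and 0.40, 1.78 and 1.15 in WT mice. The 2 genotypes overlapped widely, and the log2 fold change of 0.34 had an interval of -0.67 to 1.35. Acox2, which oxidises branched side chains including bile acid precursors, had log2 signals of -2.03, -1.88 and -2.73 in hNAG-1 mice and -3.17, -0.92 and -3.45 in WT mice. WT replicate 2 was again the highest of the 6 pools and the other two WT pools the lowest, and the log2 fold change was 0.30 (standard error 0.705). Without that pool the log2 fold change of Acox2 was 1.09 (unadjusted p = 0.0181, adjusted p = 0.471 in limma).

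The acyl-CoA thioesterases Acot1, in the cytosol, and Acot2, in mitochondria, release free fatty acids from acyl-CoA, lie side by side on chromosome 12 and are near-identical, so that their probes may share signal. Acot2 (probe at chr12:81989158-81989217, mm7) had log2 signals of -0.64, -1.04 and -1.04 in hNAG-1 mice and -1.83, -1.14 and -1.82 in WT mice. The groups did not overlap, though WT replicate 2 came close to hNAG-1 replicates 2 and 3. Its log2 fold change was 0.68, or 1.61-fold, the highest of the 33 genes (standard error 0.239, unadjusted p = 0.0297, adjusted p = 0.354 in limma). Leaving out hNAG-1 replicate 2 or WT replicate 2 kept the unadjusted p of Acot2 under 0.05, and leaving out any of the other 4 arrays did not. Acot1 had log2 signals of 0.53, 0.10 and -1.19 in hNAG-1 mice and -0.48, 1.15 and -1.62 in WT mice. WT replicate 2 was the highest and WT replicate 3 the lowest of the 6 pools, and the log2 fold change of 0.13 had an interval of -1.84 to 2.10.

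Cpt1b, Acox2, Acot1 and Ehhadh varied more among the WT pools than the other members, and WT replicate 2 was the highest WT pool in all 4. That pool was also the highest of the 6 for the liver and brown adipocyte marker sums given above and for 6 exocrine pancreas markers, whose summed log2 signal was 2.35, 2.39 and 2.47 on the hNAG-1 arrays and 2.04, 4.53 and 2.35 on the WT arrays. Ucp1, the uncoupling protein of brown fat, had log2 signals of 3.62, 1.71 and 2.67 in hNAG-1 mice and 1.63, 5.25 and 3.21 in WT mice, and the liver gene Alb had log2 signals of 0.46, 5.21 and 1.03 in hNAG-1 mice and 2.43, 7.24 and 3.76 in WT mice. Without WT replicate 2 the log2 fold changes were 0.50 for Cpt1b, 0.86 for Acot1 and 0.68 for Ehhadh, against -0.18, 0.13 and 0.34 with all 6 arrays. The part of these tissues' RNA in the members' values was not tested. Without replicate 2 of both genotypes, the arrays highest in liver markers, the median of the 33 genes was 0.30, with 32 above 0, 6 higher at an unadjusted p under 0.05 in limma (18.2%, against 3.41% of all genes in that fit) and 0 lower.

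**Figure D4:**
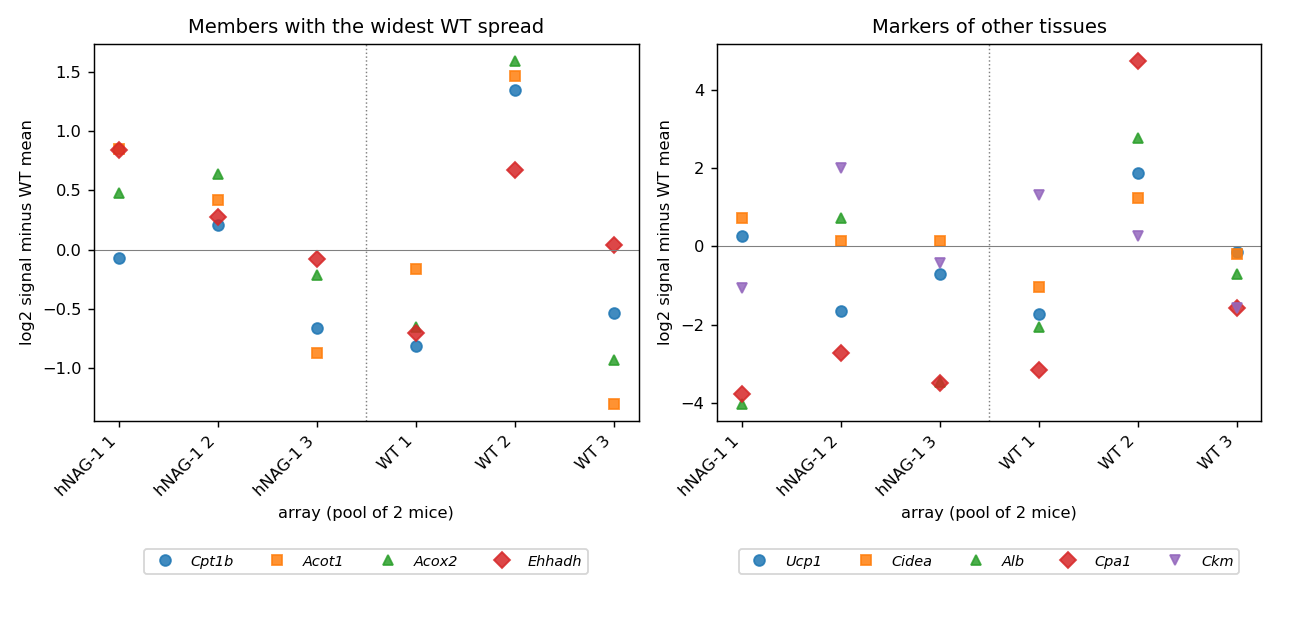
Log2 signal minus the WT mean on each of the 6 arrays for the 4 members with the widest WT spread (left) and for markers of brown fat (Ucp1, Cidea), liver (Alb), exocrine pancreas (Cpa1) and skeletal muscle (Ckm) (right), each point being 1 pool of 2 mice. WT replicate 2 is the highest WT array for all 4 members and for Ucp1, Cidea, Alb and Cpa1.

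Other beta-oxidation and peroxisome biogenesis genes were mostly above 0, as were the adipocyte markers. Of 17 genes listed as other beta-oxidation enzymes 15 were above 0 (88.2%, against 58.9% of all genes), with a median of 0.18. In limma 5 were higher at an unadjusted p under 0.05 (29.4%, against 8.44% of all genes). They included Echdc1, with a log2 fold change of 1.08, and Pecr, a peroxisomal enoyl-CoA reductase, with 0.63. The list was broad, since Echdc1 removes ethylmalonyl-CoA and is no step of the cycle, and Mlycd was also counted among the malonyl-CoA genes. The shares of this list are therefore not those of steps of the cycle alone. Of 17 peroxisome biogenesis genes 15 were above 0 (88.2%) and 6 were higher by that threshold (35.3%), with a median of 0.25. They were led by Pex11a, which takes part in peroxisome division, with a difference of 0.88 (log2, standard error 0.164, adjusted p = 0.195 in limma). Among 14 acyl-CoA synthetases and transport genes 9 were above 0 (64.3%) and 2 were higher (14.3%). These were Acsl3, by 0.84 on the log2 scale, and Acsl1, a major synthetase of adipocytes, by 0.39. Of 13 other acyl-CoA thioesterases 10 were above 0 and 0 passed the unadjusted threshold in either direction, and of 6 ketone body enzymes 2 were above 0. Of 16 PPAR targets outside beta-oxidation 5 were above 0, with a median of -0.41. The lowest of them were genes of liver, Fabp1 at -3.45, Cyp4a10 at -3.10, Cyp4a14 at -2.86, Cyp4a12a at -2.80 and Creb3l3 at -1.57 (log2 fold changes, none past the unadjusted threshold), and each was highest on WT replicate 2. Cyp4a10 and Cyp4a12a were well above background on 4 of the 6 arrays. The log2 signals of Fabp1 were -3.18, 3.82 and -0.68 in hNAG-1 mice and 1.13, 6.21 and 2.96 in WT mice, the order of the arrays being that of Alb, and the liver marker list had a median log2 fold change of -2.70. The part of liver RNA in this list was not tested. Plin2, a lipid droplet coat protein, had a log2 fold change of 0.99 and Ucp2 one of -0.74.

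The 6 adipocyte markers were all above 0 with a median of 0.31 (3 of 6 and 0.05 with quantile normalization). In limma 2 of them were higher at an unadjusted p under 0.05 (33.3%, against 8.44% of all genes). Their median on each array, relative to the WT mean, was 0.14, 0.34 and 0.43 in hNAG-1 mice and -0.12, -0.01 and 0.14 in WT mice, against 0.27, 0.21 and 0.18 in hNAG-1 mice and -0.16, 0.17 and 0.02 in WT mice for the 33 oxidation genes. Macrophage markers were below 0 in 6 of 6 genes (median -0.26) and fibroblast markers in 5 of 6 (median -0.33). In each list 2 of 6 were lower at an unadjusted p under 0.05 in limma, against 4.11% of all genes. The order of the hNAG-1 pools was not the same for the adipocyte markers and the oxidation genes, whose medians in these pools were close, at 0.18 to 0.27. WT replicate 1 was the lowest of all pools for both, at -0.12 for the adipocyte markers and -0.16 for the oxidation genes. The part of cell composition in the oxidation genes' difference was not tested.

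**Figure D5:**
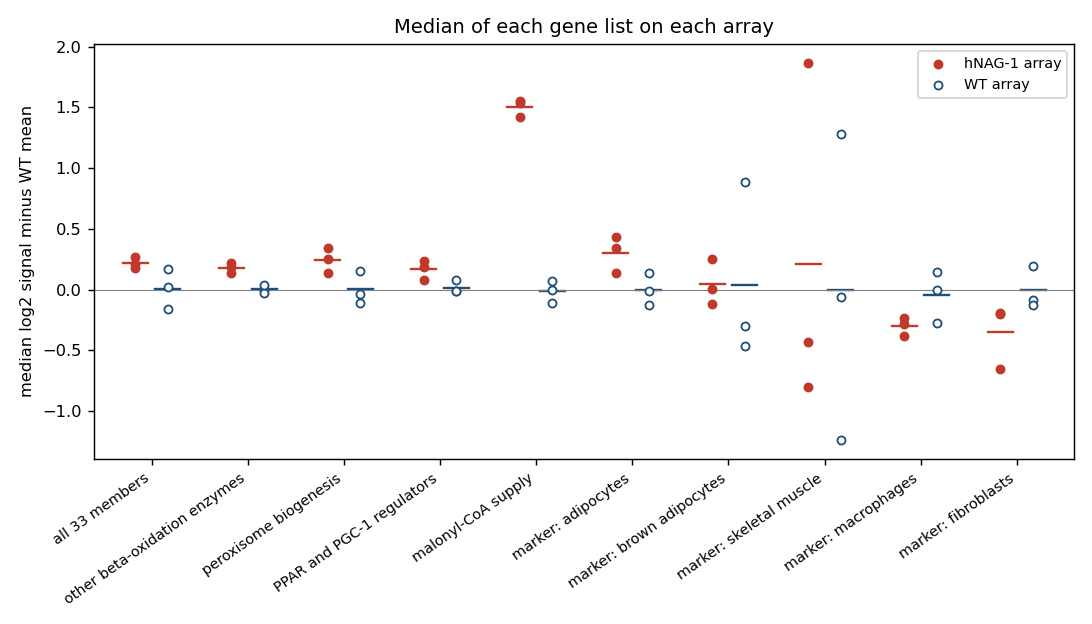
Median over each gene list of the log2 signal minus the gene's WT mean, on each array; filled points are hNAG-1, open points WT and lines the means (n = 3 each). The 33 oxidation genes span 0.18 to 0.27 in hNAG-1 mice and -0.16 to 0.17 in WT mice, and the skeletal muscle list spreads over both genotypes.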

How the data were processed

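RNA of abdominal WAT from 6 female mice per genotype, pooled in pairs, was hybridised to 3 single-colour arrays per genotype. The authors deposited the scanner output of Agilent Feature Extraction 9.5 (version in the submitters' processing notes), in which the processed signal is a linear intensity after background subtraction within the array, and a table of intensity equal to it in all 45018 rows, so no normalization between arrays had been applied. The paper's methods name an Affymetrix array and no normalization or test for it. Here, after removal of 1639 control spots and any flagged outliers, replicate spots were averaged per probe and each array's 75th percentile was subtracted on the log2 scale. Probes were named by accession (22951), symbol (6659) or synonym (3109) in a RefSeq table, GRCm38, or kept the name in the file (8455). A probe was kept (31469 were) when 3 or more of the 6 arrays had it well above background, and the brightest stood for each gene. Probe positions are on mm7; exon and UTR annotation of that build was not used here. The comparison used limma 3.58.1 (lmFit, eBayes; R 4.3.3); its two-sided p-values were adjusted by Benjamini-Hochberg across 21067 genes, with 0.05 as the threshold. The code was tested on simulated data. Pearson correlations between arrays were 0.964 to 0.987, and the number of arrays limits the precision. Positive fold changes are higher in hNAG-1 mice. The members, lists, named genes and alternatives were chosen with earlier results of these data known. Per-array values are given for members with an unadjusted p under 0.05 in limma or without overlap and for the best-known enzymes. From other lists up to 4 genes with the largest moderated t were named, besides tissue markers and genes bearing on the entry step. Among the PPAR targets, the genes of liver were named for their low fold changes and not for their moderated t. Endothelial, lymphocyte and mesothelial markers had medians of -0.09, 0.47 and -0.16. The alternatives were quantile and median scaling, normexp (offset 50), other filters, the mean of probes, trended variances, an ordinary Student's t-test, slide and replicate blocks and leaving out arrays; the percentile over spots and leaving out replicate 2 of both genotypes were added after seeing the data.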

Additional observations from a re-analysis of the deposited data

How the results depend on the processing

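No member passed an adjusted p of 0.05 under any of the 20 alternatives. Of all 21067 genes, 130 passed it with trended and robust variances and 2 with slide as a fixed block. Echs1 was above 0 in all 20, with an unadjusted p under 0.05 in 19, and Cpt1a was below 0 in all 20, with such a p in 17 and a log2 fold change of -0.26 with normexp. The 20 are not independent. Several of them, such as Student's t-test, trended variances and other filters, left both log2 fold changes as they were, so that their sign could not differ. Against 5 members higher at an unadjusted p under 0.05 in limma, there were 2 with quantile normalization (6.06%, against 8.59% of all genes in that fit), 3 without the filter on dim probes (9.09%, against 6.66%), 9 with trended and robust variances (27.3%, against 9.42%), 3 with Student's t-test (9.09%, against 8.67%) and 2 within the slide holding both genotypes (6.06%, against 2.71%). Against 1 lower, there were 0 with normexp, 0 within that slide and 0 without replicate 2 of both genotypes. Leaving out 1 array in turn gave 1 to 8 members higher (3.03% to 24.2%, against 4.53% to 11.3% of all genes), and a median log2 fold change of the members between 0.09 (without WT replicate 1) and 0.29 (without WT replicate 2). With normexp the median was 0.39, the median of all genes moving to -0.19. Without replicate 2 of both genotypes it was 0.30. With the replicate number as a block, 2 members were higher (6.06%, against 7.05% of all genes) and 1 lower. Same-numbered pools had deviations correlated at 0.099, 0.513 and 0.093, and hNAG-1 replicate 1 correlated best with WT replicate 3 (0.336), so the numbers were not taken to pair the pools. The second slide held hNAG-1 arrays only, so with slide as a fixed block the difference rests on hNAG-1 replicate 1 against the 3 WT arrays. The median log2 fold change of the members was then 0.27, against -0.03 over all genes, the same as within the slide holding both genotypes. The cause of these shifts was not tested. All members were well above background on all arrays, while 3 pools per genotype limit the intervals.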
